A study of Drosophila melanogaster with 25 samples.

Results

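A set of 150 RNAs was more abundant in what antiserum Gp01 against Shep brought down from Kc cell nuclei than in the input or in any other Kc precipitate. The members were chosen by measured values. CPM, which are counts of a gene scaled to a common library total, were averaged over the libraries of a group, and 1 was added. The log2 folds of Gp01 over input, over Shep Rb5, over Shep Rb6 and over Su(Hw) Gp60 were then taken, and a gene's score was the lowest of the 4. The 150 highest scores were taken among 5637 eligible genes, those with a mean of at least 5 CPM in the inputs of both cell lines, out of 16037 gene identifiers. Every Kc value below was therefore used in choosing the RNAs and is given as a description without a test, while the BG3 precipitates were not used and could be tested.

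The study sequenced nuclear RNA that came down with Shep or Su(Hw) in RIP-seq, in which an antiserum pulls a protein out of an extract together with the RNA bound to it. Kc167, called Kc here, is an embryonic fly cell line with traits of blood cells, and BG3 is a line from the larval central nervous system. The Kc groups were input (6 libraries), Shep Gp01 (2), Shep Rb5 (3), Shep Rb6 (2) and Su(Hw) Gp60 (3). The BG3 groups were input, Shep Rb5 and Su(Hw) Gp60 with 2 libraries each, and no BG3 library was made with Gp01. The labels name no mutation, knockdown or drug in any group, all libraries were of polyadenylated RNA from nuclear extracts, and no mock precipitation was used here. The protocol describes profiles from a pair of independent Shep antibodies as alike, without saying which antisera these were.

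Su(Hw) binds DNA through zinc fingers and is part of insulators, elements that limit the contact between enhancers and promoters. Its best-known site is the gypsy insulator. Shep is an RNA-binding protein with RNA recognition motifs that is rich in the nervous system and is known as a negative regulator of gypsy insulator activity.

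Only 3 of the 150 RNAs had a symbol in the RefSeq gene table of assembly GCF_000001215.4, which names 31 of the eligible genes. They were AMPKalpha, the catalytic subunit of the energy-sensing AMP-activated protein kinase, Herc4, a ubiquitin ligase with a HECT domain, and CG9018. The other members are given by the identifiers of the deposited tables, which carry no names. Of 14 lists with 317 gene symbols, among them Mediator, splicing, kinase, ubiquitin, tRNA synthetase and ribosomal protein genes, 9 symbols could be paired with an identifier and all 9 were eligible. AMPKalpha was a member from 2 paired kinase and energy-sensing genes, and Herc4 from 2 paired ubiquitin and proteasome genes. None of the 10 haemocyte markers and none of the 10 neural markers could be paired, so the cell lines were not checked against markers.

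Gene counts ranged from 6190633 to 59066733 per library. The ribosomal identifier FBgn0085813, left out of every CPM value, held 6.17% and 6.68% of gene counts in the Gp01 libraries, 13.7% to 30.1% in the Kc inputs and 2.75% to 9.46% in the other Kc precipitates. Machine and quality encoding differed between libraries. Gp01 1 was sequenced on a HiSeq with PHRED64 qualities. Gp01 2 was sequenced on a HiSeq with PHRED33 qualities, which only Kc input 6 and Rb6 2 share. Kc inputs 1 and 2, Kc Rb5 1 and 2 and Kc Su(Hw) 1 came from a GA II. Kc input 3, Rb5 3 and Su(Hw) 2 were labelled with both machines. In the fold of Gp01 over Rb5, antiserum and machine therefore cannot be told apart. BG3 Su(Hw) 1 stood apart in scaling, with a TMM factor of 0.43 against 0.64 to 1.43 in the other libraries. TMM (trimmed mean of M values) rescales a library so that most genes do not shift. The lowest count of any member was 12, in Kc Su(Hw) 1, and over the members the lowest counts in Gp01 1 and 2 were 621 and 308.

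The 150 RNAs together made up 3.60% and 3.36% of gene counts in the Gp01 libraries, a mean of 3.48% ± 0.168 (SD, n = 2). In the Kc inputs they made up 1.26% ± 0.127 (SD, n = 6), between 1.06% and 1.42%. They held 1.12%, 1.12% and 0.968% of counts in the Rb5 libraries, 1.00% in each Rb6 library and 1.05%, 0.986% and 1.20% in the Su(Hw) libraries. No Kc library other than those of Gp01 exceeded 1.42%, and the Rb5 and Rb6 precipitates, made against the same protein, lay at or below the input levels. In BG3 cells the 2 input libraries held 1.34% and 1.13%. The Rb5 libraries held 1.40% and 1.13% there and the Su(Hw) libraries 0.752% and 1.57%, so these groups overlapped.

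**Figure D1:**
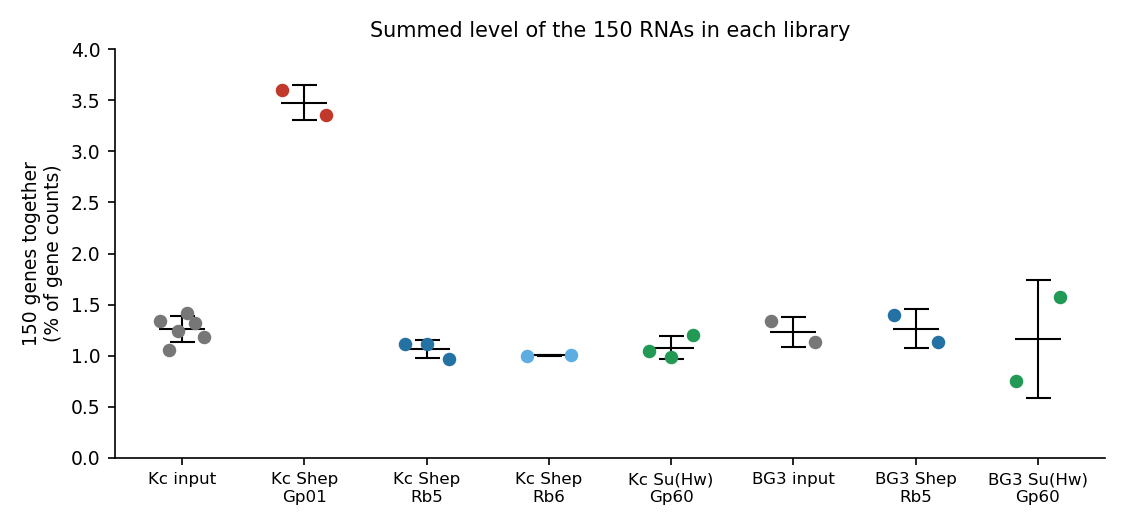
Share of all gene counts held by the 150 RNAs together in each library, in percent, with group means and SD as bars. The Gp01 libraries, at 3.60% and 3.36%, lie above all other libraries, which lie between 0.752% and 1.57%.

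The score ran from 1.12 to 2.03 with a median of 1.27, against a median of -0.09 over the eligible genes. Input was the closest group for 87 members, Rb5 for 42, Rb6 for 15 and Su(Hw) for 6. On the log2 scale of group means plus 1 CPM, Gp01 lay above input by a median of 1.36 (1.12 to 2.98), above Rb5 by 1.51, above Rb6 by 1.70 and above Su(Hw) by 1.92. The eligible genes had medians of 0.30, 0.13, 0.41 and 1.01 in the same order. With TMM-scaled levels the member medians were 1.03, 1.39, 1.33 and 1.00 against -0.03, 0.01, 0.04 and 0.12, so the shift shared by all genes went away and the members stayed about 1 log2 unit above. All 150 kept a lowest fold above 0 with TMM scaling, from 0.19 to 1.62, and 45 of them kept it at 1 or more. Of the eligible genes 27.2% had it above 0, and the members had been chosen on these same Kc libraries.

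Both Gp01 libraries lay above all 14 other Kc libraries for 138 of the 150, which the rule favours, and for 17.5% of the eligible genes. The score changed little around the last rank. Just inside were FBgn0003076 at 1.117, FBgn0014006 at 1.116 and FBgn0034537 at 1.115, and just outside were FBgn0029131 at 1.112, FBgn0031782 at 1.110 and FBgn0030648 at 1.107.

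FBgn0025626 had the highest score. It stood at 83.9 and 71.6 CPM with Gp01, and at a lowest of 13.1, a median of 15.5 and a highest of 18.2 CPM in the Kc inputs. It stood at 21.9, 18.8 and 14.3 CPM with Rb5, at 17.3 and 14.5 with Rb6 and at 16.9, 11.6 and 26.0 with Su(Hw). Each Gp01 library was thus well above the highest of the others, and the folds of the means were 2.24 over input, 2.03 over Rb5, 2.22 over Rb6 and 2.04 over Su(Hw) on the log2 scale.

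FBgn0034504, of rank 2, stood at 99.7 and 105 CPM with Gp01 against 8.30 to 34.3 CPM in the 14 other Kc libraries. FBgn0001978, of rank 4, stood at 81.2 and 105 CPM against 19.6 to 32.7 CPM, and FBgn0027087, of rank 5, at 345 and 439 CPM against 59.5 to 148 CPM. These RNAs were alike in that input, Rb5, Rb6 and Su(Hw) libraries were mixed among each other and the 2 Gp01 libraries stood alone. FBgn0034858, of rank 3, stood at 272 CPM in Gp01 1 and 694 CPM in Gp01 2. Its other Kc libraries ran from 56.2 to 207 CPM, and the highest of them was input 6, which shares the PHRED33 class with Gp01 2. FBgn0030316, of rank 6, had 59.1 and 43.3 CPM with Gp01 against at most 20.2 CPM elsewhere in Kc cells.

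**Figure D2:**
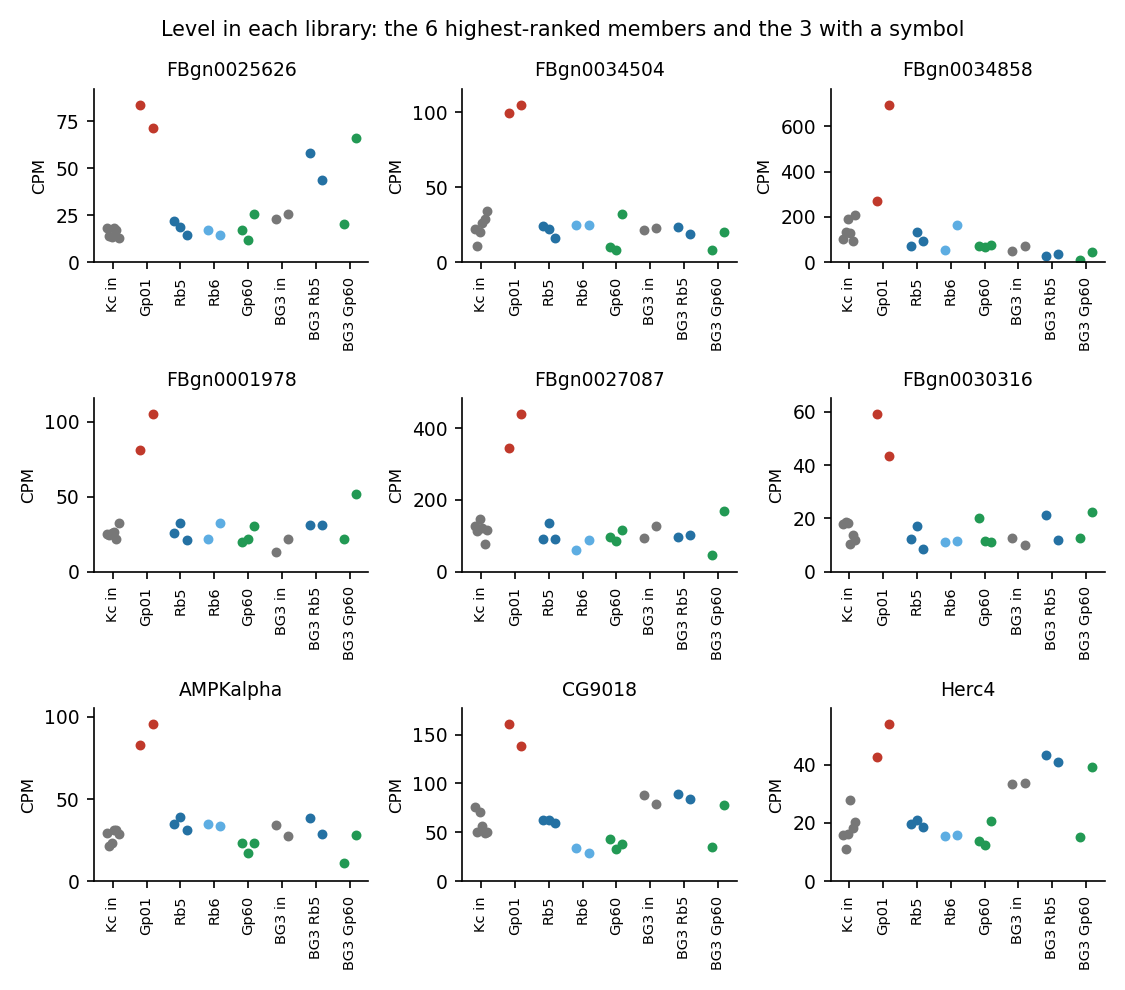
CPM without TMM scaling in each library for the 6 members of highest score and the 3 with a symbol, with 1 point per library and a linear axis from 0. In the 9 panels the 2 Gp01 points lie above all other Kc points, for FBgn0025626 at 83.9 and 71.6 CPM against at most 26.0 CPM.

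The members of ranks 7 to 12 had the same form, with FBgn0030434 at 137 and 105 CPM with Gp01 against at most 44.0 CPM, FBgn0003062 at 622 and 425 CPM against at most 234 CPM, and FBgn0250814 at 526 and 336 CPM against at most 177 CPM. FBgn0039215 had 106 and 76.2 CPM against at most 31.5 CPM, FBgn0026015 had 81.0 and 61.7 CPM against at most 27.1 CPM, and FBgn0030206 had 46.8 and 32.6 CPM against at most 16.3 CPM.

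AMPKalpha stood at 82.8 and 95.9 CPM with Gp01. It stood at 21.6 to 31.3 CPM (median 29.2) in the Kc inputs, at 34.8, 39.2 and 31.1 with Rb5, at 35.0 and 33.5 with Rb6 and at 23.2, 17.1 and 23.1 with Su(Hw). The other Shep antisera thus gave levels around and somewhat above the highest input, and the Su(Hw) libraries gave the lowest. Its lowest fold was 1.33 on the log2 scale, over Rb5.

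CG9018 stood at 161 and 138 CPM with Gp01 and at 49.2 to 76.2 CPM (median 53.6) in the Kc inputs. It stood at 62.5, 62.9 and 59.7 CPM with Rb5, at 34.2 and 29.4 with Rb6 and at 42.8, 32.7 and 37.8 with Su(Hw). Of the 3 Shep antisera, Gp01 lay above the inputs, Rb5 among them and Rb6 below them for this RNA.

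Herc4 stood at 42.7 and 54.0 CPM with Gp01 and at 11.0 to 28.0 CPM (median 17.2) in the Kc inputs. The 8 other Kc precipitates lay between 12.4 and 20.9 CPM. The groups other than Gp01 overlapped, and the Gp01 fold over input was 1.36 on the log2 scale.

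The members differed in how even the Gp01 libraries were. In 137 members the 2 values lay within 2-fold of each other. Gp01 2 was 2-fold or more above Gp01 1 in 10 members and Gp01 1 above Gp01 2 in 3. For FBgn0024491, whose fold over input of 2.98 was the highest among the members, the values were 497 CPM in Gp01 1 and 1749 CPM in Gp01 2. The other PHRED33 libraries were also the highest of their groups for this RNA, with 325 CPM in input 6 and 512 CPM in Rb6 2, which is above Gp01 1. FBgn0259683 likewise stood at 34.2 and 175 CPM with Gp01 and at 105 CPM in input 6. Among the 10 members with the higher Gp01 2, input 6 was the highest of the Kc inputs in 8 and Rb6 2 was above Rb6 1 in all 10. The same held in 18.3% and 44.1% of the eligible genes. Of the 12 members in which a Gp01 library overlapped another Kc library, 8 belonged to these 10. What part the sequencing class has in these 10 members was not tested.

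Within the PHRED64 and PHRED33 classes of HiSeq libraries, Gp01 stayed above the other Kc groups present there, which the rule favours. No Kc Rb5 library was in either class, and no Su(Hw) library was in the PHRED33 class. The PHRED64 class here leaves out libraries labelled GA II. Gp01 1 lay above Kc inputs 4 and 5, Rb6 1 and Su(Hw) 3, all of the PHRED64 class, in 150 of 150 members, by a lowest log2 fold of 0.08 to 2.08 (median 1.27) and by 1 or more in 121. Gp01 2 lay above input 6 and Rb6 2 in 150 of 150, by 0.59 to 2.23 (median 1.30) and by 1 or more in 137. These libraries were among those that chose the members, so the counts are a description without a test. Of the eligible genes, 43.3% lay above 0 in the PHRED64 class and 55.9% in the PHRED33 class. At 1 or more lay 282 and 395 of the 5637 eligible genes in the same order.

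The choice was also repeated on some libraries and the folds were read in the others, an alternative added after the data had been seen. When the 150 genes were chosen without Gp01 2, input 6 and Rb6 2, 110 of them were members. In those 3 unused libraries, Gp01 2 lay above both input 6 and Rb6 2 for all 150, with a lowest log2 fold of 0.31 to 2.23, a median of 1.21 and 117 genes at 1 or more. The eligible genes had a median of 0.10 there, and 55.9% lay above 0. When the genes were chosen on those 3 libraries alone, 92 were members. In the 13 Kc libraries not used, the lowest fold of Gp01 1 over the 4 groups had a median of 1.14 against -0.14 over the eligible genes. This lowest fold lay above 0 for 146 of 150 and for 43.6% of the eligible genes. In both readings the median of the newly chosen genes lay above that of the eligible genes. They concern these newly chosen genes, of which 110 and 92 were members, and not the 150 members as a set. The first reading has no Rb5 or Su(Hw) library. Each reading rests on 1 Gp01 library and has no replicate error.

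**Figure D3:**
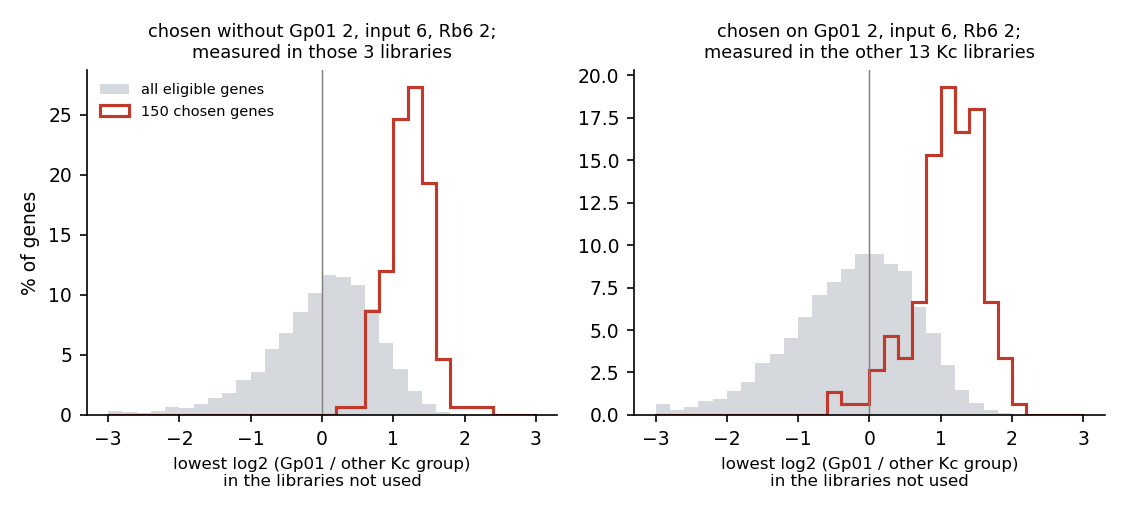
Lowest log2 fold of Gp01 over the other Kc groups, in libraries that were not used to choose the genes, as percent of genes per bin. On the left it is the lower of the folds over input and Rb6, and on the right the lowest over all 4 groups. The sides are therefore not the same measure. Values of eligible genes beyond 3 in size are drawn in the end bins. The chosen 150 (red) have medians of 1.21 on the left and 1.14 on the right, against 0.10 and -0.14 over the eligible genes (grey).

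In the other Kc precipitates the members did not stand above input as a group, except with Su(Hw) under TMM scaling. The Rb5 fold over input had a median of -0.10 on the log2 scale (eligible genes 0.15), with 56 members above 0 and 94 below. The Rb6 fold had a median of -0.32 (eligible -0.11), with 38 above and 112 below. The Su(Hw) fold had a median of -0.48 (eligible -0.70), with 14 above and 136 below. Below input lay 62.7% of the members with Rb5, 74.7% with Rb6 and 90.7% with Su(Hw). The shares of the eligible genes were 42.8%, 55.2% and 91.0%. With Su(Hw) these unscaled shares were thus alike, while the members' median lay above that of the eligible genes. With TMM scaling the medians of Rb5 and Rb6 stayed below 0, at -0.31 and -0.29. That of Su(Hw) turned to 0.06 against -0.14 over the eligible genes, with 89 members and 37.9% of the eligible genes above 0. Without TMM scaling, Rb5, Rb6 and Su(Hw) all lay below input in 87 members (58.0%) and in 37.7% of the eligible genes. All 3 lay above it in 9 of the 150 members and in 328 of the 5637 eligible genes. The rule took genes whose input, Rb5, Rb6 or Su(Hw) level was high relative to Gp01 out of the set, so these values are a description of what it left.

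**Figure D4:**
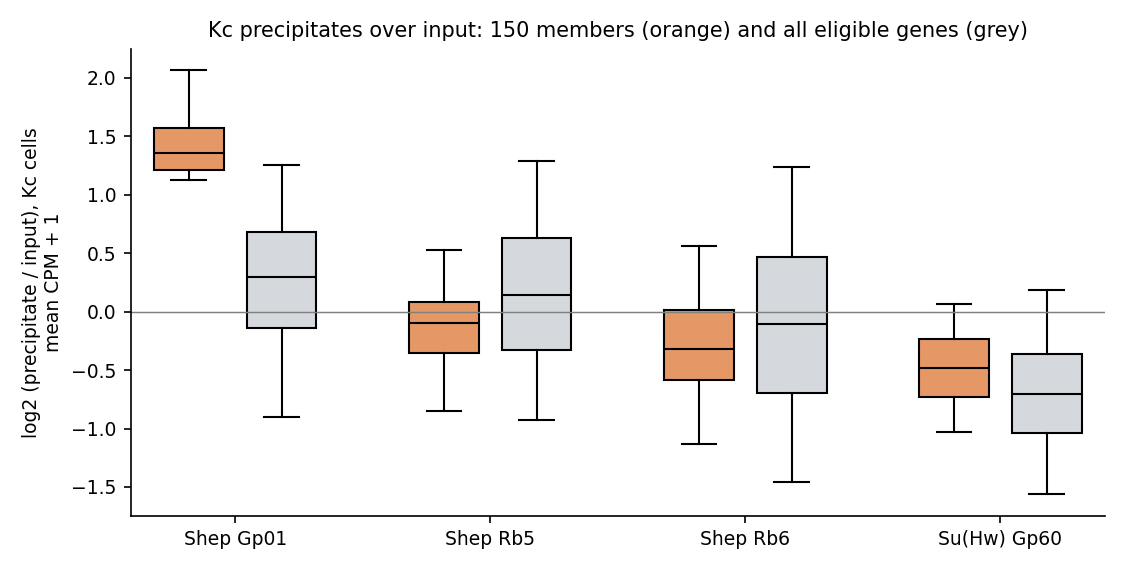
Log2 fold of each Kc precipitate over Kc input, from group means of CPM plus 1, for the 150 members (orange) and the 5637 eligible genes (grey); boxes are quartiles with the median and whiskers run from the 5th to the 95th percentile. The members' medians are 1.36 with Gp01, -0.10 with Rb5, -0.32 with Rb6 and -0.48 with Su(Hw).

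The members lay on both sides when the inputs of the cell lines were compared, of which the Kc inputs were used in the choice. Their BG3 over Kc input fold had a median of -0.29 on the log2 scale (eligible -0.16), from -2.68 for FBgn0032587 to 2.70 for FBgn0039774, with 50 members higher in BG3 and 100 lower (66.7%), against 58.4% of the eligible genes lower. More cells with an RNA and more of it per cell cannot be told apart in these populations.

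For the BG3 precipitates, a quasi-likelihood test of edgeR was fitted over all 22 libraries, with Benjamini-Hochberg adjustment over 9761 genes at 0.05. A member called higher or lower passed that test, and all 150 were tested. BG3 levels are TMM-scaled CPM. Both precipitates were set against the same inputs. The spread was estimated over Kc and BG3 libraries together, so SE and adjusted p are not those of the BG3 replicates alone. All BG3 libraries were of the same sequencing class, so the class term acted on the spread and not on differences between BG3 groups. For Rb5 against input, all tested genes gave 533 higher and 616 lower calls. Without the class term there were 125 and 160, and with BG3 libraries alone 0 and 1.

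With Shep Rb5 in BG3 cells, 5 of the 150 members were higher than input and 5 lower (3.33% each), which is below the shares of all tested genes (5.46% higher and 6.31% lower) and of the eligible genes (6.23% and 10.2%). The median fold was -0.11 on the log2 scale against -0.13 over the eligible genes, and 0.15 against 0.12 without TMM scaling, where edgeR called no member and 12 had an unadjusted p under 0.05. The members' median turned with single libraries, to 0.20 without BG3 input 1 (eligible -0.002) and 0.17 without Rb5 2 (eligible -0.10). It was -0.25 without input 2 (eligible -0.13) and -0.32 without Rb5 1 (eligible -0.10). The members' median thus lay above or below that of the eligible genes by the library left out. Of all calls in this comparison 46.4% were higher, 72.7% without TMM and 56.7% with FBgn0085813 in the library sizes. FBgn0025626, of rank 1 by its Gp01 score, stood at 28.0 and 24.8 CPM in the BG3 inputs and at 56.4 and 36.7 CPM with Rb5. Both Rb5 libraries were higher, by 0.82 ± 0.25 on the log2 scale (SE, edgeR adjusted p = 0.0403). FBgn0032147 stood at 53.6 and 65.1 CPM in the inputs and at 128 and 111 CPM with Rb5, a rise of 1.01 ± 0.25 (SE, edgeR adjusted p = 0.0150). FBgn0010786 rose by 1.15 ± 0.32 (SE, edgeR adjusted p = 0.0297), from 55.9 and 83.5 to 155 and 153 CPM, and FBgn0040068 by 0.84 ± 0.27 (SE, edgeR adjusted p = 0.0481).

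The largest fall was that of FBgn0034858, of rank 3 by its Gp01 score. It stood at 61.8 and 67.9 CPM in the BG3 inputs and at 28.5 and 31.0 CPM with Rb5, a log2 fold of -1.12 ± 0.34 (SE, edgeR adjusted p = 0.0394). FBgn0039450 fell from 135 and 133 to 57.4 and 70.4 CPM (log2 fold -1.07 ± 0.29 SE, edgeR adjusted p = 0.0243). FBgn0039580 and FBgn0034982 had log2 folds of -0.97 and -0.93, which became -0.53 and -0.41 without BG3 input 1 (edgeR adjusted p = 0.435 and 0.553). Members of high Gp01 score thus lay on both sides of input with Rb5 in BG3 cells. These calls depended on single libraries: without BG3 input 1 or without Rb5 1 no member was called, and without Rb5 2 there were 4 higher and 0 lower.

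With Su(Hw) in BG3 cells more members were higher than lower. Of the 150, 26 were higher than input (17.3%) and 1 was lower (0.667%). Of all tested genes 13.5% were higher and 15.2% lower, and of the eligible genes 10.7% and 24.7%. The members' median fold was 0.22 on the log2 scale against -0.26 over the eligible genes. It was -0.08 without BG3 input 2 (eligible -0.33), 0.04 without Su(Hw) 2 (eligible -0.43) and 0.42 without BG3 input 1 (eligible -0.24). The split rested on the scaling. Without TMM, 4 members were higher and 9 lower, with a median of -0.30 against -0.76, and the share of higher calls among all calls of the fit was 17.4% in place of 47.1%. The members' median lay above that of the eligible genes under both scalings, and 4 RNAs were higher under both.

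These 4 had the largest rises. FBgn0032147 stood at 331 and 352 CPM with Su(Hw) against 53.6 and 65.1 CPM in the inputs, a log2 fold of 2.53 ± 0.26 (SE, edgeR adjusted p = 7.35e-06). FBgn0010786 stood at 228 and 375 CPM, a log2 fold of 2.11 ± 0.33 (SE, edgeR adjusted p = 0.000221). FBgn0024329 stood at 64.4 and 65.4 CPM against 19.1 and 17.6 CPM in the inputs, a log2 fold of 1.82 ± 0.23 (SE, edgeR adjusted p = 4.18e-05). The Su(Hw) and input libraries of these RNAs were far apart and did not overlap. FBgn0001978, of rank 4 by its Gp01 score, rose from 15.9 and 20.9 to 51.8 and 59.8 CPM (log2 fold 1.60 ± 0.25 SE, edgeR adjusted p = 0.000204). These 4 calls were kept in all 15 other settings of the fit.

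Of the 12 members with the highest Gp01 score, 4 were higher with Su(Hw) in BG3 cells, namely FBgn0025626, FBgn0001978, FBgn0030316 and FBgn0039215, and 0 were lower, beside the 10.7% of eligible genes that were higher. Without TMM scaling 1 of these, FBgn0001978, was called. FBgn0025626 stood at 48.5 and 75.7 CPM with Su(Hw), and its log2 fold was 1.24 ± 0.25 (SE, edgeR adjusted p = 0.00155). The lower member was FBgn0039450, at 56.0 and 75.2 CPM against 135 and 133 CPM (log2 fold -1.02 ± 0.29 SE, edgeR adjusted p = 0.0125). Without BG3 input 2 there were 12 higher and 6 lower members, without Su(Hw) 1, whose TMM factor stood apart, 19 and 0, and without Su(Hw) 2, 17 and 5.

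The direct test of Rb5 against Su(Hw) in BG3 cells called 0 members higher with Rb5 and 12 lower (8.0%), and 37 members had an unadjusted p under 0.05. Of all tested genes 8.15% were higher and 6.79% lower, and of the eligible genes 12.8% and 6.4%. The median fold was -0.33 on the log2 scale against 0.11 over the eligible genes. It was -0.01 without Rb5 2 (eligible 0.20), -0.14 without Su(Hw) 2 (eligible 0.29) and -0.52 without Rb5 1 (eligible 0.20). FBgn0024329 stood at 22.6 and 21.4 CPM with Rb5 against 64.4 and 65.4 CPM with Su(Hw), a log2 fold of -1.56 ± 0.23 (SE, edgeR adjusted p = 0.000232). FBgn0032147 had a log2 fold of -1.52 ± 0.25, FBgn0025621 of -1.30 ± 0.29 and FBgn0035374 of -1.01 ± 0.27. Without Rb5 2 the folds of the last pair were -0.80 and -0.61 (edgeR adjusted p = 0.166 and 0.310), and without TMM scaling -0.54 and -0.17 (edgeR adjusted p = 0.271 and 0.704). FBgn0032147 thus rose with both antisera and more with Su(Hw), while FBgn0024329 was called over input with Su(Hw) alone. Without TMM 1 member was higher and 0 lower, with a median of 0.41 against 0.87, and 89.5% of all calls were higher in place of 54.6%. Without Rb5 2 or without Su(Hw) 1 there were 2 lower members, and 1 was higher without Su(Hw) 2.

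Over the 3 BG3 comparisons 34 members (22.7%) were called in at least 1 and 116 in none. Of all tested genes 36.8% were called in at least 1, and of the eligible genes 46.8%. AMPKalpha, CG9018 and Herc4 were among the 116. AMPKalpha stood at 41.3 and 26.4 CPM in the BG3 inputs, at 37.3 and 24.2 CPM in the Rb5 libraries and at 26.5 and 32.4 CPM in the Su(Hw) libraries. CG9018 stood at 106 and 75.7, 86.8 and 69.9, and 83.0 and 89.8 CPM in the same order, and Herc4 at 40.1 and 32.4, 41.8 and 34.2, and 35.3 and 45.1 CPM. The 3 groups overlapped for each of these RNAs. Their log2 folds over input lay between -0.21 and 0.15, each smaller than its SE of 0.22 to 0.25.

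**Figure D5:**
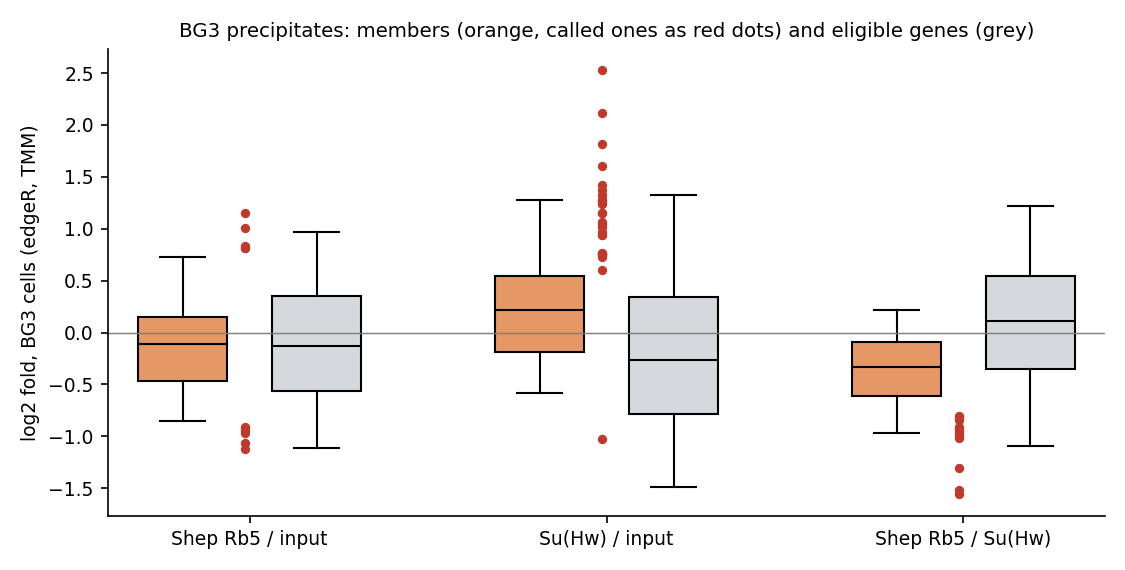
Log2 folds in BG3 cells from the edgeR fit with TMM scaling, for the 150 members (orange) and the 5637 eligible genes (grey), with boxes at the quartiles, whiskers from the 5th to the 95th percentile and the called members as red points. The members' medians are -0.11 for Rb5 over input, 0.22 for Su(Hw) over input and -0.33 for Rb5 over Su(Hw).

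Across the members, the unscaled Rb5 fold over input in Kc cells and that in BG3 cells went together with a Pearson r of 0.67 over 150 genes, and over the 5637 eligible genes r was 0.77. The Su(Hw) folds of both lines had an r of 0.66 over the members and 0.71 over the eligible genes. These are correlations across genes, which are not independent replicates and share library, depth and base composition.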

How the data were processed

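The authors deposited raw read counts per gene for 25 nuclear RIP-seq and input samples. Per the submitters' processing notes, cutadapt 1.2.1, TopHat2, Bowtie2, HTSeq and DESeq were used with genome build dm3. Annotation release and strand setting were not given in the sources used here, so overlapping and antisense genes are uncertain. Lines that name no gene (50.2% to 91.2% of all counts) were left out. Of the samples, 3 were listed 2 times with identical files and counted once, which left 22 libraries in 8 groups. Replicates are biological per the labels, and p-values rest on that.

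The members, lists and named genes were chosen with earlier results of these data known. The BG3 groups were tested with edgeR 4.0.16 (limma 3.58.1, R 4.3.3), quasi-likelihood and robust, with TMM, group and sequencing class as terms, a minimum count of 10 and total of 15, without FBgn0085813. The scripts were tested on simulated data. Alternatives included DESeq2 1.42.0. The genes named are the 12 highest by score, those with a symbol, the 3 on either side of rank 150, list members, and up to 4 largest rises and falls called in each BG3 comparison. FBgn0024491, FBgn0259683, FBgn0032587, FBgn0039774 and further called members among the 12 highest were named after their values were seen. Sequences were not used here.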

Additional observations from a re-analysis of the deposited data

Results flagged for a closer look

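The level of FBgn0259683 in Kc input 6, 105 CPM, lay far from the other 5 Kc inputs, which ran from 20.5 to 51.9 CPM. The gap to the nearest of them was 0.627 of the whole range, against a critical value of 0.625 for 6 samples. In all, 32 sets of Kc inputs were looked at, and that of FBgn0259683 was included after its values had been seen. The usual rate, by which chance alone sets 1 in 20 such groups apart, therefore does not hold for it. Gp01 2 (175 CPM) and Rb6 2 (69.2 CPM), sequenced like input 6 with PHRED33 qualities, were also above the other libraries of their groups for this RNA. What part the sequencing class has in this was not tested.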

How the results depend on the processing

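The choice of members was repeated with TMM scaling, pseudocounts of 0.5 and 5, other floors, medians and with FBgn0085813. It was also repeated on libraries labelled HiSeq, of which Kc input 3, Rb5 3 and Su(Hw) 2 were labelled GA II as well. These settings kept 109 to 147 of the 150, with 114 under TMM scaling and 109 with FBgn0085813. The choice kept 110 without the PHRED33 libraries. It kept 92 with the PHRED33 libraries alone, and 88 to 149 when 1 Kc library was left out, with 88 without Gp01 1 and 105 without Gp01 2. Counts of members called are given as higher and lower. For BG3 Rb5 against input (5 and 5), DESeq2 gave 12 and 9, no filter 4 and 3, no sequencing class 0 and 0, BG3 libraries alone 0 and 0 and no scaling 0 and 0. For Su(Hw) against input (26 and 1), no sequencing class gave 16 and 0, BG3 libraries alone 14 and 0 and no scaling 4 and 9. For Rb5 against Su(Hw) (0 and 12), DESeq2 gave 0 and 26, no filter 0 and 5, no sequencing class 0 and 5, BG3 libraries alone 0 and 2 and no scaling 1 and 0. Leaving out 1 BG3 library gave 0 to 6 and 0 to 7, 12 to 22 and 0 to 6, and 0 to 1 and 2 to 10 in the same order. A group left with 1 library was assumed to vary like the others. The cause was not tested. The choices by PHRED33 class, no scaling and BG3 libraries alone with the block were added after seeing the data. No named call changed sign in 15 settings; named calls of Rb5 against input lost the threshold in 5 to 8 of them (adjusted p up to 0.553), those of Rb5 against Su(Hw) in 1 to 6 (up to 0.704) and that of FBgn0039450 with Su(Hw) in 4 (up to 0.139).

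With the replicate block in place of the sequencing class the counts were 3 and 5, 28 and 1, and 0 and 22, and with BG3 libraries alone and the replicate block 10 and 25, 40 and 4, and 0 and 44. Deviations of same-numbered BG3 libraries correlated at 0.64 (input and Rb5), 0.34 (input and Su(Hw)) and 0.42 (Rb5 and Su(Hw)), but with 2 numbers per group and no pairing in the labels the samples share only a number. Depth limits the lowest members, with 12 counts at the least.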
